A study of Mus musculus with 2 samples.

Results

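The Gimap family encodes the GTPases of immunity-associated proteins, and it was described here across the immune cells of B16 tumours. The family was taken as the 8 genes of the deposited feature table with the symbols Gimap1, Gimap3, Gimap4, Gimap5, Gimap6, Gimap7, Gimap8 and Gimap9, chosen by symbol out of 31053 genes, and all 8 had counts. Live CD45+ cells, which carry the leucocyte surface protein CD45, were sorted from tumours of the mouse melanoma line B16 and profiled by droplet single-cell RNA sequencing in 2 libraries, 1 for each genotype. The library labelled WT came from mice with both Mettl3 alleles flanked by recombination sites and without Cre (Mettl3 fl/fl Lyz2 +/+), which were littermates of the Cre carriers, and the library labelled KO, METTL3 deficient by its label, came from mice with the same Mettl3 alleles and Cre in 1 allele of Lyz2 (Mettl3 fl/fl Lyz2 cre/+). All mice were aged 8 weeks, on the C57BL/6 background, and cells of several mice were pooled for each library. Mettl3 encodes the methyltransferase that writes N6-methyladenosine on RNA, and Lyz2-driven Cre acts in macrophages, monocytes, most granulocytes and a few dendritic cells, not in lymphocytes. With 1 library per genotype, no test between genotypes was possible: both values are given, and every interval is a 95% interval that covers counting error only (exact Poisson for levels, exact Clopper-Pearson for shares and ratios). All mice of a genotype share a library, so a difference between the libraries compares those libraries and not the genotypes.

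Gimap proteins are small GTPases of lymphocytes that sit on intracellular membranes and are known for roles in lymphocyte development and survival. Gimap5 is found on lysosomes, and its loss in rats and mice causes a severe shortage of T cells. Gimap3 is its closest relative in mice and is found on mitochondria. Gimap1 is needed for mature T and B cells, Gimap4 has been tied to the timing of lymphocyte death, Gimap6 binds proteins of the GABARAP family that take part in autophagy, Gimap7 can speed up the GTPase activity of its partners, and Gimap8 is a long member with several GTP-binding domains.

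The 8 genes lay in 1 cluster of 123618 bases on mouse chromosome 6 (GRCm38, GENCODE release M21, chr6:48647234-48770851), with 6 genes on the plus strand and Gimap6 and Gimap3 on the minus strand. From the proximal end the order was Gimap8, Gimap9, Gimap4, Gimap6, Gimap7, Gimap1, Gimap5 and Gimap3. Gimap5 spanned chr6:48746197-48754210 and Gimap3 spanned chr6:48764464-48770851. The readthrough gene Gm28053 shared exons with Gimap7, Gimap1 and Gimap5 on the same strand, so reads in those exons could not be given to 1 gene, and how many UMIs of Gimap7, Gimap1 and Gimap5 went uncounted for this reason was not tested. Gimap3 and Gimap5 were the only pair of members that shared any stretch of 31 bases in their transcripts, 13.2% of the stretches of Gimap3, and none of these lay in the last 500 bases of the longest transcript, where 3′ sequencing reads.

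RefSeq promoter windows (GRCm38.p6) were found for 8 of 8 members. The windows of 4 members are shown because these genes differ most in their pattern below: Gimap5 was highest in natural killer (NK)-like cells, Gimap3 differed most between cycling and noncycling T-like cells, Gimap7 departed from the other members in NK-like cells, and Gimap9 was the main member in melanoma-like cells. Each runs 5′ to 3′ on the strand of its gene, from 250 to 21 bases before the transcript start, and capitals mark matches to AGGAAG, the core of sites for ETS factors, or TGTGGT, the core of sites for RUNX factors, on either strand.
Gimap5: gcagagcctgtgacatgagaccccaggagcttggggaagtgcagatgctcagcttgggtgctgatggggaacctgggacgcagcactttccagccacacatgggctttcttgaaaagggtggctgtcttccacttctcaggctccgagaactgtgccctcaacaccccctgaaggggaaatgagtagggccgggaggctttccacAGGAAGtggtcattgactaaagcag
Gimap3: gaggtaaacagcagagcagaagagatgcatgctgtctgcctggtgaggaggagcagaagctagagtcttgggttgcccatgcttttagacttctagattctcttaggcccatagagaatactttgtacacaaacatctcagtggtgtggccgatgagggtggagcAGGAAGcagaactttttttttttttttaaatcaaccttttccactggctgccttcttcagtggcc
Gimap7: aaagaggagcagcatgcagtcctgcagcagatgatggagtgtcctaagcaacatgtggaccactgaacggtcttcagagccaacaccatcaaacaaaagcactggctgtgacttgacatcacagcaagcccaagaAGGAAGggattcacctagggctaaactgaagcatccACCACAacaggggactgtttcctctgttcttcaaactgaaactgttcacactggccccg
Gimap9: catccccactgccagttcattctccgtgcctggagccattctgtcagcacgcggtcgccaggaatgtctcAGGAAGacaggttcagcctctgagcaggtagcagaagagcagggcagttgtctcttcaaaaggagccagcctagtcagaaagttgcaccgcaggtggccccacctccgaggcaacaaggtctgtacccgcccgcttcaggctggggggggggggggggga
The Gimap5 window is chr6:48745947-48746176 on the plus strand, the Gimap3 window is chr6:48770872-48771101 on the minus strand, the Gimap7 window is chr6:48718371-48718600 on the plus strand and the Gimap9 window is chr6:48675885-48676114 on the plus strand. AGGAAG or its complement CTTCCT was found in a window of 7 of the 8 members, all but Gimap6, against 27.2% of all 32841 promoter windows of the same length. TGTGGT or ACCACA was found for Gimap1, Gimap4 and Gimap7, against 13.2% of all windows, and CTTTGA or TCAAAG, the core of TCF/LEF sites, was found for none, against 13% of all windows. These letters overlap in none of the 4 windows shown, and a match describes the sequence only.

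Depth was counted in unique molecular identifiers (UMIs, each standing for 1 captured RNA molecule). There were 45963969 UMIs over 5895 barcodes in the library labelled WT, and 54052317 over 8446 in that labelled KO, of which 5405 and 7625 cells were analysed, at medians of 4148 and 3567 UMIs per cell. Each cell was put into a class by its own marker genes, and 10.05% and 9.86% of cells met no class. In both libraries 7 of 8 T cell markers, 6 of 6 NK markers and 7 of 7 B cell markers were highest in the class they name, whereas only 2 of 5 and 3 of 5 markers were for conventional dendritic type 2 (cDC2)-like cells. Class names end in "-like" because they rest on markers alone. The 13 barcode sequences that the libraries shared were kept, and leaving them out moved no family value beyond its counting interval. A level is given as CPM, the UMIs of a gene or list per 1000000 UMIs of its class and library, and pairs of values are in the order WT, KO. Mettl3 was at 9.75 and 10.8 CPM in macrophage-like cells, so the targeted gene was not lower in the cells that carry Cre. Reads at the 3′ end may not show an internal deletion, which was not tested, and the libraries are named by their labels. Lyz2, which carries Cre in 1 allele of the KO mice, was at 5892 and 2690 CPM in the same cells.

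The family was a lymphoid signal. Summed over the 8 genes, its level was 2026 CPM (1811 to 2258) in NK-like cells, 1225 (1088 to 1375) in B-like cells and 1094 (1055 to 1134) in T-like cells of the library labelled WT. The corresponding levels in the library labelled KO were 2235 (2076 to 2403), 1485 (1298 to 1691) and 1055 (1019 to 1092). With equal weight for each cell the level in T-like cells was 1589 and 1638. Plasma-like cells followed at 174 and 319, from 11 and 35 cells. Plasmacytoid dendritic (pDC)-like cells held 106 and 100.2 CPM. All other classes of at least 40 cells per library lay under 60 CPM, with macrophage-like cells at 57.7 and 43.9, monocyte-like cells at 47.9 and 30.005, and cDC2-like cells at 33.3 and 47.2. Nonclassical monocyte-like cells of the library labelled WT held 0 Gimap UMIs in 49 cells, which allows up to 21.6 CPM (3 counts over their total), and those of the library labelled KO held 9 in 131 cells. In a bulk sample of such a tumour, fewer lymphoid cells and less Gimap RNA per cell could not be told apart, whereas here both were counted.

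**Figure D1:**
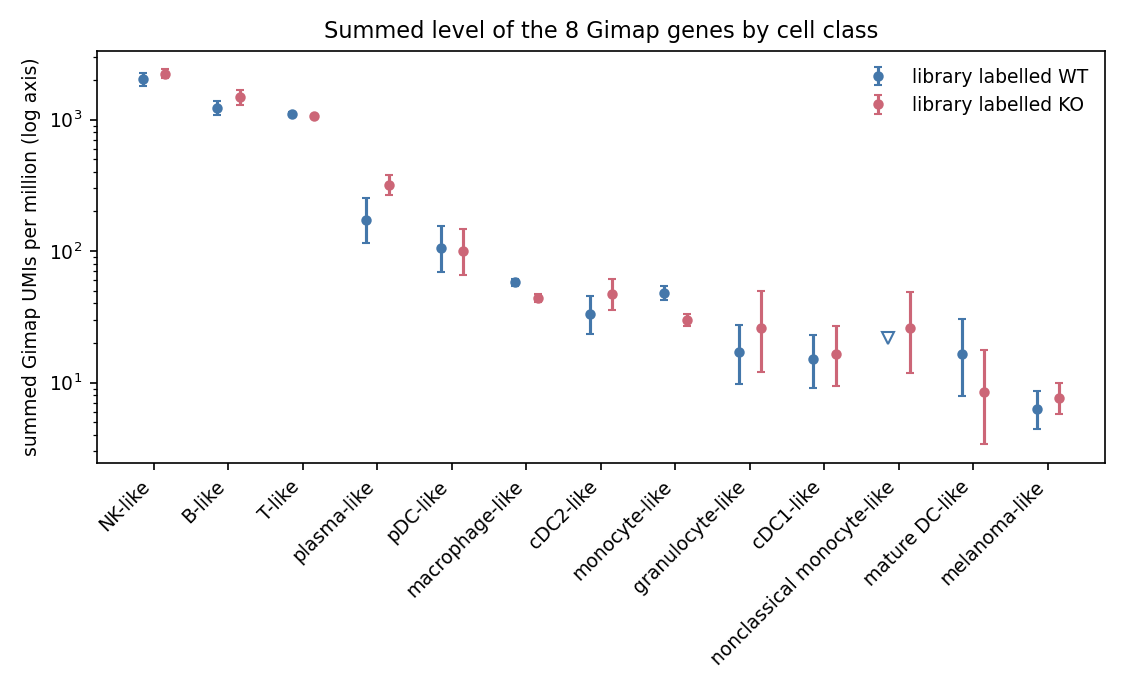
Summed CPM of the 8 Gimap genes on a log axis for each marker-gated cell class, as points for the libraries labelled WT (blue) and KO (red) with 95% Poisson intervals. The open triangle marks the limit that a count of 0 allows in nonclassical monocyte-like cells. NK-like, B-like and T-like cells lie above 1000 in both libraries and the macrophage, monocyte, granulocyte and conventional dendritic classes lie under 60.

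Among the 3 lymphoid classes, NK-like cells stood above B-like cells by 0.72 (0.49 to 0.96) and 0.59 (0.37 to 0.81) on the log2 scale in the libraries labelled WT and KO. B-like and T-like cells were not separated in the library labelled WT, where the log2 ratio was 0.16 (-0.02 to 0.34), and differed by 0.49 (0.29 to 0.69) in the library labelled KO. That last value turned to -0.02 without cycling cells. With classes from clusters the level in B-like cells was 801 and 688 CPM and the log2 ratio of B-like over T-like cells -0.27 and -0.61, and the order of B-like and T-like cells was not settled.

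Most lymphoid cells carried the family. At least 1 Gimap UMI was found in 92.6% (90.3 to 94.5) of the 622 T-like cells labelled WT and in 90.3% (88.0 to 92.4) of the 745 labelled KO, with median depths of 2353 and 1803 UMIs. Such a UMI was also found in 98.5% and 93.8% of NK-like cells, where the median cell held 1966 and 1622 UMIs, and in 76.3% and 76.6% of B-like cells, where it held 1438 and 1105. In granulocyte-like cells, which should lack these genes, it was found in 1.65% and 2.59%, with 1301 and 1037 UMIs in the median cell. Cells were then thinned to 1000 UMIs, which left out shallower cells, 40 and 97 T-like, 2 and 14 NK-like, 23 and 31 B-like and 142 and 128 granulocyte-like cells. Among the rest, 71.1% and 74.1% of T-like cells, 87.9% and 89.2% of NK-like cells, 68.8% and 68.3% of B-like cells and 1.08% and 2.11% of granulocyte-like cells kept a Gimap UMI. The median T-like cell held UMIs of 3 and 2 different members, the median NK-like cell of 4 and 3, and 10 and 7 T-like cells held all 8.

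The level of every member was higher in T-like than in macrophage-like cells. The log2 ratio of the sums was 4.25 (4.15 to 4.35) and 4.59 (4.47 to 4.70), with thinning to 1000 UMIs 4.92 and 5.43, and with equal weight for each cell 4.91 and 5.15. Among WT cells it was lowest for Gimap6 (3.88) and highest for Gimap1 (4.76), and among KO cells lowest for Gimap9 (3.74) and highest for Gimap7 (5.18). All 8 members were at least 4-fold higher in T-like cells in both libraries, where 5% of the 6924 genes with at least 20 CPM in any of the 4 values met the same rule. The median log2 ratio was 4.20 over the members and 0.10 over all genes tested. Of 6 locus neighbours beyond the cluster, the 2 that reached 20 CPM, Tmem176a and Tmem176b, did not meet the rule and showed another pattern, with Tmem176a at 31.04 and 24.1 CPM in T-like cells, 51.1 and 36.9 in macrophage-like ones and 612 and 536 in mature dendritic cell-like cells. Aoc1 had no UMI in T-like, NK-like, B-like, macrophage-like or monocyte-like cells, and Rarres2, Repin1 and Zfp775 stayed under 20 CPM in these classes.

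The members were not equally abundant in T-like cells. The 3′ chemistry counts molecules at 1 end, so levels were not divided by transcript length, and capture may differ between genes, as may the reads that Gimap1, Gimap5 and Gimap7 share with the readthrough gene. Gimap4 led with 243 CPM (225 to 262) among WT cells and 224 CPM (208 to 241) among KO cells. Gimap1 followed at 173 and 172, Gimap3 at 165 and 169 and Gimap5 at 144 and 163, and the intervals of these 3 genes overlapped in each library. Gimap6 lay at 117 and 104, Gimap7 at 116 and 93.9, Gimap8 at 74.4 and 62.9 and Gimap9 at 61.4 and 67.2. The intervals of Gimap6 and Gimap7 overlapped in each library, as did those of Gimap8 and Gimap9.

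**Figure D2:**
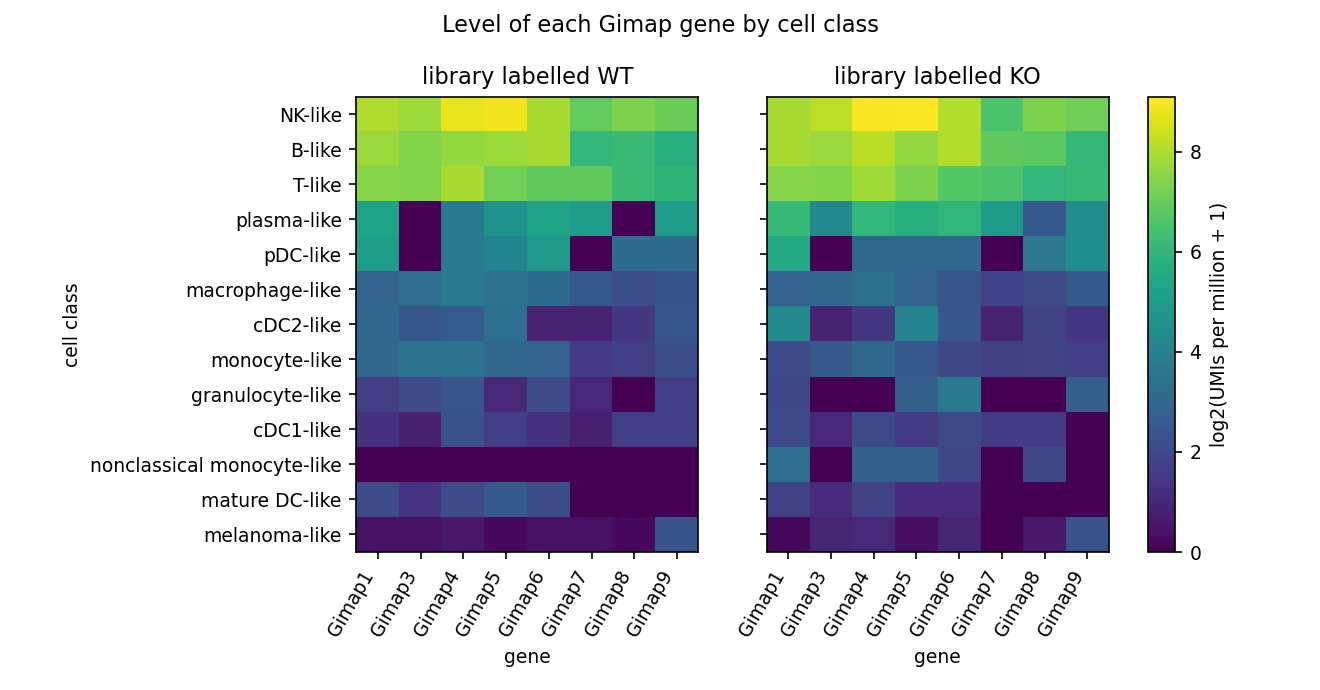
Level of each Gimap gene as log2(CPM + 1), by colour, with genes across and cell classes down, for the libraries labelled WT (left) and KO (right). The top 3 rows, NK-like, B-like and T-like, are bright for every member, and Gimap4 and Gimap5 are brightest in NK-like cells.

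NK-like cells held more Gimap RNA per UMI than T-like cells, and the gap was widest for Gimap5. Gimap5 was at 480 (379 to 600) CPM in NK-like cells labelled WT and at 530 (454 to 616) in those labelled KO, against 144 and 163 in T-like cells. The log2 ratio of NK-like over T-like cells for Gimap5 was 1.74 (1.37 to 2.09) and 1.70 (1.45 to 1.96), the highest of the 8 in both libraries. Gimap4 reached 430 and 509 CPM in NK-like cells, with log2 ratios of 0.82 and 1.18. Gimap8 gave log2 ratios of 1.07 and 1.37, Gimap6 1.01 and 1.36, and Gimap9 1.09 and 1.04. Gimap7 did not follow, with 118 and 92.0 CPM in NK-like cells and log2 ratios of 0.03 (-0.72 to 0.69) and -0.03 (-0.62 to 0.52). In all, 5 of 8 members, all but Gimap1, Gimap3 and Gimap7, were at least 1.5-fold higher in NK-like cells in both libraries, against 12.5% of 7110 genes. The median log2 ratio was 1.03 over the members and 0.04 over all genes tested. Without cycling cells the log2 ratio of Gimap5 was 1.39 and 1.18, and that of the sum was 0.55 and 0.61. NK-like cells held T cell marker UMIs at 854 and 711 CPM, against 3859 and 3686 in T-like cells, and macrophage marker UMIs at 511 and 494, against 813 and 563.

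B-like cells held the family in other proportions. Gimap6 made up 18.6% (15.4 to 22.3) of the 515 Gimap UMIs in B-like cells of both libraries, against 10.3% (9.52 to 11.0) of the 6267 in T-like cells. Its level was 238 and 262 CPM in B-like cells, beside 117 and 104 in T-like cells, log2 ratios of 1.02 (0.59 to 1.44) and 1.34 (0.82 to 1.81). The intervals of the B-like and T-like shares overlapped for Gimap1, at 16.9% and 16.1%, and for Gimap3, at 14.0% and 15.5%. In NK-like cells Gimap5 made up 23.7% (21.2 to 26.4) of 1054 UMIs, against 14.3% (13.5 to 15.2) in T-like cells, and Gimap7 4.65% (3.46 to 6.10), against 9.73% (9.01 to 10.5).

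The mixture of members differed in pDC-like, cDC2-like and melanoma-like cells, which held few Gimap UMIs. In macrophage-like cells, with 1937 over both libraries, the pooled intervals of 3 members did not overlap those in T-like cells, Gimap1 at 12.4% against 16.1%, Gimap7 at 7.28% against 9.73% and Gimap9 at 8.88% against 6.0%. Taken by library, the Gimap1 intervals were apart only among WT cells, and those of Gimap7 and Gimap9 only among KO cells. pDC-like cells held 53 Gimap UMIs in 66 and 81 cells, of which 20 were Gimap1, 9 Gimap6 and 8 Gimap9. Gimap3 and Gimap7 had 0 of these 53 UMIs, which allows a share of up to 5.66% each by the same limit of 3 counts, while Gimap3 held 15.5% and Gimap7 9.73% in T-like cells. The pDC-like cells held T cell marker UMIs at 85.4 and 48.3 CPM, and none of the 6 NK markers had a UMI. cDC2-like cells held 92 Gimap UMIs, of which 30 were Gimap1 and 28 Gimap5, shares of 32.6% (23.2 to 43.2) and 30.4% (21.3 to 40.9). The libraries differed in which came first, with 8 UMIs of Gimap1 and 10 of Gimap5 labelled WT and 22 and 18 labelled KO. Of the 38 UMIs labelled WT 24 lay in 4 cells with at least 3 each, and of the 54 labelled KO 39 lay in 8. T cell markers were at 73.6 and 35.9 CPM in cDC2-like cells, and their part in these values was not tested. Melanoma-like cells, which a CD45 sort should leave out and which had medians of 45337 and 34540 UMIs, held 95 Gimap UMIs, and 53 of them were Gimap9. The level of Gimap9 there was 4.14 (2.68 to 6.10) and 3.76 (2.50 to 5.44) CPM, while each other member was at most at 1.07. T cell markers were at 6.78 and 8.60 CPM in melanoma-like cells.

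**Figure D3:**
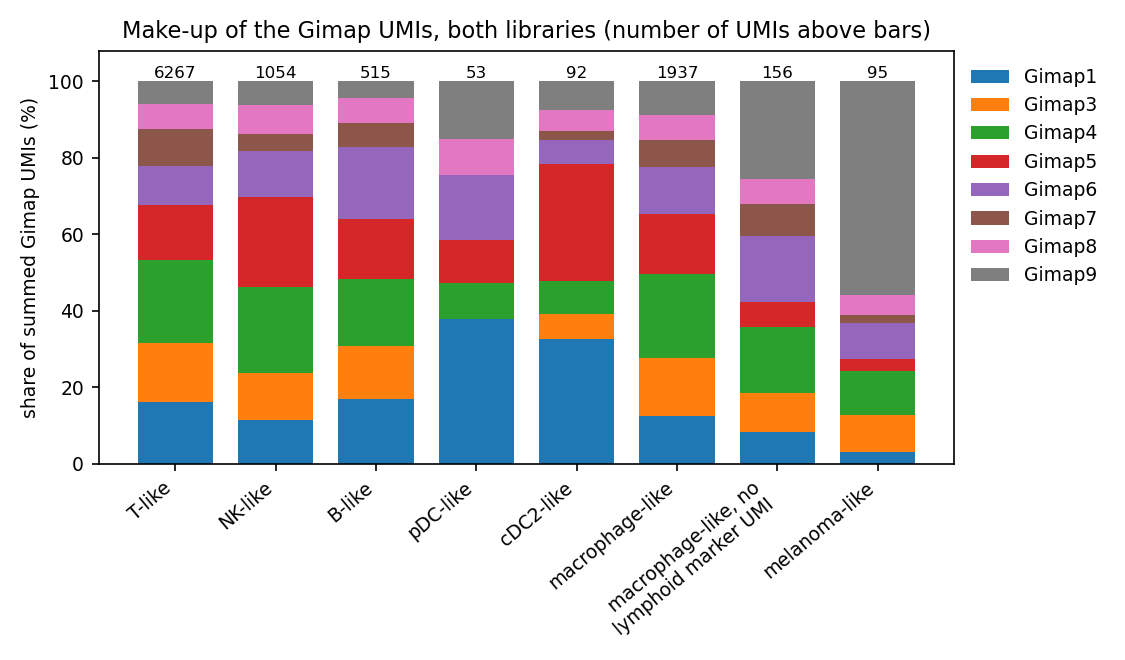
Share of the summed Gimap UMIs held by each member, in percent, as stacked bars for 8 groups of cells over both libraries, with the number of UMIs above each bar. Gimap4 is the largest share in T-like and macrophage-like cells, Gimap1 in pDC-like cells and Gimap9 in melanoma-like cells, while Gimap1 and Gimap5 lead in cDC2-like cells.

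The Gimap UMIs of macrophage-like cells lay in few cells and went with lymphoid markers. Of 1142 Gimap UMIs in macrophage-like cells labelled WT, 83.7% lay in 145 of 1747 cells, those with at least 3, and of 795 in those labelled KO, 71.6% lay in 111 of 2125 cells. The summed level of the family in macrophage-like cells was 5.27% and 4.16% of that in T-like cells, and that of the 8 T cell markers was 3.61% and 2.56%. By gene these percentages ran from 3.70 to 6.80 and from 2.76 to 7.48 for the members, and from 2.87 to 4.56 and from 1.74 to 3.01 for the markers, none of which was at 0. In the 1111 and 1553 macrophage-like cells without a UMI of any T, NK or B marker, the family was at 6.92 (5.37 to 8.77) and 8.00 (6.42 to 9.86) CPM, and the log2 ratio of T-like over these cells was 7.31 and 7.04. This group was defined after the data had been seen. Gimap9 made up 13.2% (6.23 to 23.6) of the 68 Gimap UMIs in these cells labelled WT, where Gimap6 led with 29.4% (19.0 to 41.7), and 35.2% (25.3 to 46.1) of the 88 in those labelled KO. In T-like cells its share was 5.61% (4.82 to 6.49) and 6.37% (5.55 to 7.26). Of monocyte-like cells without such a marker UMI, 2.46% and 1.38% had a Gimap UMI.

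The family varied among T-like cells with their state. T-like cells were divided into cycling cells, noncycling Tcf7-positive cells (a UMI of Tcf7, Lef1 or Ccr7 and none of Gzmb), noncycling Gzmb-positive cells (a UMI of Gzmb and at most 1 of these 3 genes) and others. Tcf7 encodes a factor of naive and memory T cells, and Gzmb the killing protease granzyme B. As a level, cycling cells stood lowest, at 754 CPM (710 to 801) and 704 (665 to 745), against 1440 and 1506 in noncycling cells. The log2 ratio was -0.93 (-1.04 to -0.82) and -1.10 (-1.20 to -0.99). Per cell the order was the other way round, with 8.71 and 8.67 Gimap UMIs in a cycling cell and 3.95 and 3.34 in a noncycling one, since cycling cells held medians of 9464 and 10309 UMIs against 1997 and 1577. Gimap RNA thus took up a smaller part of a larger RNA count. With thinning to 1000 UMIs, which left out 1 and 2 cycling but 39 and 95 noncycling cells as too shallow, 55.0% and 58.7% of the other cycling and 75.3% and 78.2% of the other noncycling cells kept a Gimap UMI.

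Members differed in how far they were lower in cycling cells. Gimap3 was at 73.7 and 75.4 CPM in cycling and at 257 and 288 in noncycling T-like cells, log2 ratios of -1.80 (-2.13 to -1.48) and -1.93 (-2.23 to -1.64). Gimap8 followed with -1.52 and -1.51, and Gimap6 with -1.22 and -1.40. Gimap7 stood at -0.53 (-0.86 to -0.20) and -0.70 (-1.05 to -0.36), and its interval did not reach that of Gimap3 in either library. Of the 8 members, 6 were at least 1.5-fold lower in cycling cells in both libraries, all but Gimap1 and Gimap7, against 16.7% of 6807 genes. The median log2 ratio over the 8 members was -0.88, and over all genes tested -0.08. All 9 genes of a list for quiescence and recirculation were lower by the same rule, Klf2 with log2 ratios of -3.79 and -3.16 and Il7r with -3.19 and -3.69 on the log2(CPM + 1) scale, and the list median was -2.92. Klf2 encodes a factor that keeps T cells resting, and Il7r the receptor for the survival cytokine interleukin-7. Of a list for activation and exhaustion, only Ccl5 of the 9 tested genes met the rule, with a list median of 0.07. Macrophage markers were at 575 and 552 CPM in cycling and at 1056 and 576 in noncycling cells. NK markers were at 44.4 and 38.9 CPM in cycling and at 100.5 and 113 in noncycling cells, and T cell markers at 3411 and 3165 in cycling and at 4314 and 4355 in noncycling cells. The part of these lists was not tested.

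**Figure D4:**
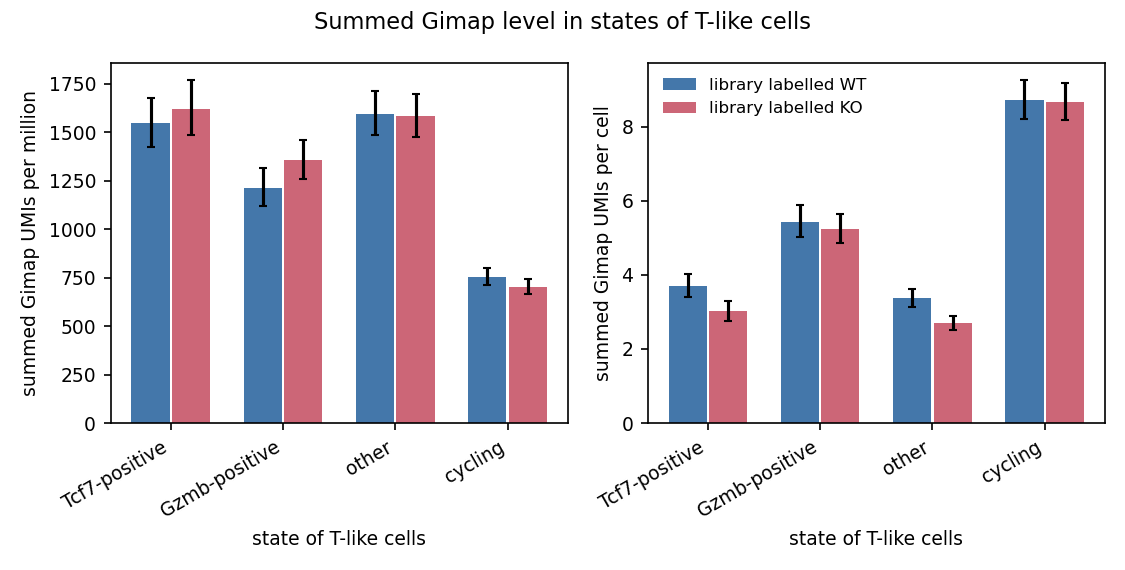
Summed Gimap level in 4 states of T-like cells, as CPM (left) and as UMIs per cell (right), with bars for the libraries labelled WT (blue) and KO (red) and 95% Poisson intervals. Cycling cells have the lowest level, at 754 and 704 CPM, and the highest number per cell, at 8.71 and 8.67.

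Tcf7-positive and Gzmb-positive cells differed less. The family was at 1547 (1423 to 1677) and 1621 (1485 to 1768) CPM in Tcf7-positive cells and at 1214 (1120 to 1313) and 1357 (1258 to 1461) in Gzmb-positive cells, log2 ratios of 0.35 (0.18 to 0.52) and 0.26 (0.09 to 0.42). With thinning to 1000 UMIs, which left out 9 and 22 Tcf7-positive and 2 and 9 Gzmb-positive cells, the second value turned to -0.24, and with equal weight for each cell to -0.26, so the direction of the sum was not stable. Single members were further apart, but their ratios were not rerun with thinning or equal weight for each cell. Gimap3 was at 300.3 and 371 CPM in Tcf7-positive and at 192 and 199 in Gzmb-positive cells, log2 ratios of 0.64 (0.24 to 1.05) and 0.90 (0.50 to 1.30). Gimap9 gave 1.10 and 0.86, and Gimap8 0.83 (0.17 to 1.51) and 0.44 (-0.22 to 1.10). Gimap7 lay on the other side, at 109 and 91.1 CPM in Tcf7-positive and 131 and 150.1 in Gzmb-positive cells, log2 ratios of -0.27 (-0.87 to 0.31) and -0.72 (-1.39 to -0.09). By the rule of 1.5-fold in both libraries, 2 of 8 members were higher in Tcf7-positive cells, Gimap3 and Gimap9, against 11.1% of 6975 genes, with a median log2 ratio of 0.42 over the members and 0.02 over all genes tested. Both fixed lists hold genes that defined these states, Gzmb among the activation and exhaustion genes and Tcf7, Lef1 and Ccr7 among the quiescence and recirculation genes. Their counts, 0 of 9 tested activation and exhaustion genes and 9 of 9 quiescence and recirculation genes, were thus partly set by the gate. Counts without the defining genes were not taken. Macrophage markers were at 749 and 462 CPM in Tcf7-positive and at 1400 and 663 in Gzmb-positive cells, and their part was not tested.

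By lineage, CD8 T-like cells held the family at 990 and 949 CPM, CD4 T-like cells at 1071 and 1131, and T-like cells with a Foxp3 UMI, which marks regulatory T cells, at 1049 and 994 from 29 and 21 cells. The log2 ratio of CD8 over CD4 T-like cells was -0.11 (-0.30 to 0.08) and -0.25 (-0.40 to -0.10). It compared 358 and 355 CD8 with 73 and 113 CD4 T-like cells, out of 622 and 745 T-like cells. The rest, with UMIs of both or neither of the CD8 and CD4 markers, were left out. The lineages were not matched for depth or cycling cells, and the part of these in the ratio was not tested. Members stood on both sides of the summed ratio. Gimap9 gave -1.01 (-1.65 to -0.32) and -0.50 (-1.08 to 0.11), and Gimap3 gave -0.35 (-0.82 to 0.16) and -0.80 (-1.15 to -0.44). Gimap7 gave 0.72 (0.02 to 1.53) and 0.45 (-0.11 to 1.05), and Gimap4 was at 223 and 213 CPM in CD8 T-like cells beside 224 and 214 in CD4 T-like cells.

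The deletion was aimed at myeloid cells, while the family was measured best in lymphoid cells, which do not express Lyz2-Cre. In T-like cells the summed level of 1094 CPM (WT) and 1055 CPM (KO) gave a log2 ratio of KO over WT of -0.05 (-0.12 to 0.02). None of the 8 members passed 1.5-fold, against 3.53% of 6031 genes in either direction. The ratios ran from -0.31 (-0.54 to -0.07) for Gimap7 to 0.18 (-0.02 to 0.37) for Gimap5, and Gimap7 was the only member whose interval left out 0, with 322 and 288 UMIs. Among noncycling T-like cells Gimap5 was at 185 and 233 CPM, a log2 ratio of 0.33 (0.09 to 0.58). In Gzmb-positive cells its ratio was 0.61 (0.21 to 1.01), in Tcf7-positive cells -0.04 (-0.54 to 0.45) and in cycling cells 0.06 (-0.27 to 0.38). In the Gzmb-positive cells NK markers were at 78.4 and 148 CPM, with 1 of 6 at 0 in each library, and macrophage markers at 1400 and 663, and their part in the value of Gimap5 was not tested. The median over the members was -0.06 and over all genes tested 0.04, and 0 tested genes of the quiescence, activation, apoptosis, GABARAP or neighbour lists passed 1.5-fold here. In CD8 T-like cells the ratio of the sum was -0.06 (-0.15 to 0.03) and in CD4 T-like cells 0.08 (-0.15 to 0.31). Macrophage markers were at 813 CPM in T-like cells labelled WT and at 563 in those labelled KO.

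**Figure D5:**
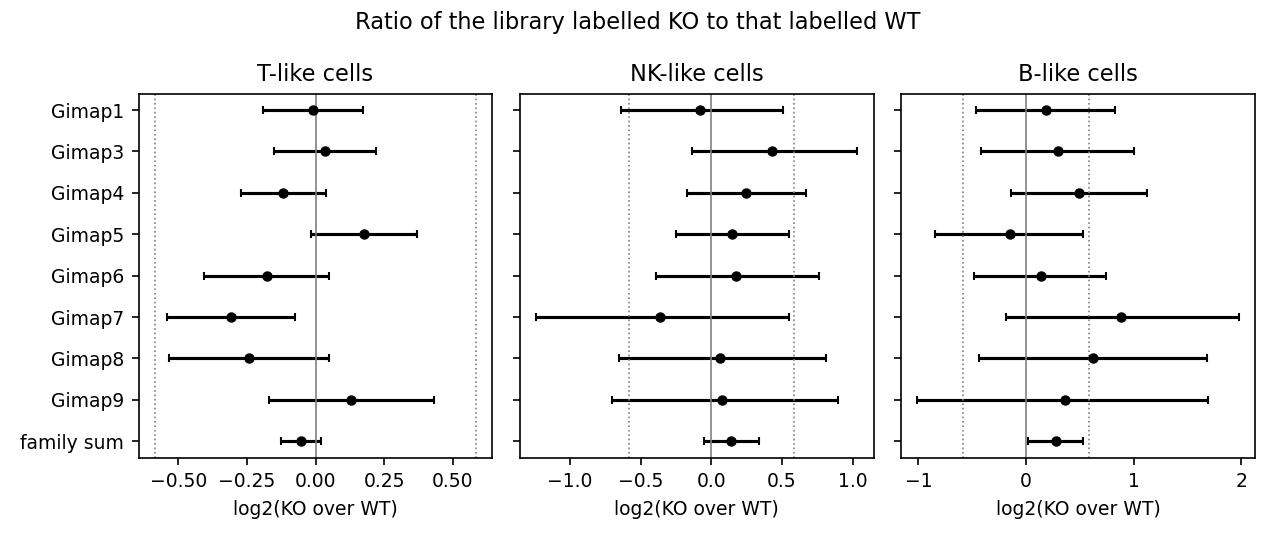
Log2 ratio of the library labelled KO over that labelled WT for each Gimap gene and their sum in T-like, NK-like and B-like cells, with 95% counting intervals. Dotted lines mark 1.5-fold. In T-like cells every point lies inside the dotted lines, and intervals are wider in NK-like and B-like cells, which hold fewer UMIs.

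In NK-like cells the ratio of the sum was 0.14 (-0.05 to 0.33), and 0 of 8 members passed 1.5-fold, against 40.5% of 6496 genes, from 68 and 162 cells. In B-like cells it was 0.28 (0.02 to 0.53), and Gimap7 and Gimap8 passed 1.5-fold with 15 against 18 UMIs and 17 against 17, while 47.3% of 6352 genes did. With classes from clusters the ratio of the sum in B-like cells turned to -0.22. The intervals of the members in B-like cells, -0.19 to 1.98 for Gimap7 and -0.44 to 1.68 for Gimap8, included 0. A gene at the minimum of 20 CPM held only a few UMIs in NK-like or B-like cells, while members held 19 to 173 in NK-like cells. How far counting error raised the shares of all genes was not tested, so they do not show that the members were steadier than other genes.

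Other genes tied to the family by function were taken from fixed lists. Counts are out of the genes that reached 20 CPM, while list medians cover every listed gene. Of the GABARAP and LC3 genes, partners of Gimap6 in autophagy among them, 0 of the 4 tested were at least 4-fold higher in T-like than in macrophage-like cells, where 5% of all genes tested were, with a list median of -0.49 on the log2 scale, and Gabarap was at 285 and 247 CPM in T-like and 802 and 773 in macrophage-like cells. Of 9 activation and exhaustion genes 8 met that rule, and of 9 quiescence and recirculation genes 4, with list medians of 4.83 and 2.18. Of 9 tested genes for apoptosis and survival, only Bcl2 met the 4-fold rule, at 106 and 96.2 CPM beside 20.6 and 22.5. Bcl2 encodes a protein that blocks cell death. It was at 386 and 438 CPM in NK-like cells, and with Bcl2l11 and Bid it was 1 of 3 genes, of 10 tested in this list, at least 1.5-fold higher in NK-like than in T-like cells in both libraries, against 12.5% of all genes tested. Of the quiescence and recirculation genes, 5 of 9 met the latter rule, Klf2, Tcf7, Bcl2, Foxo1 and Satb1, with a list median of 1.11. Lef1 was higher but short of the rule. The others of this list were lower in NK-like cells in both libraries, S1pr1 at -2.04 and -1.01, Il7r at -2.12 and -1.34 and Ccr7 at -0.63 and -0.78 on the log2(CPM + 1) scale.

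The genes most like the family were found over 24 points, 12 classes in 2 libraries, among 9953 genes that were neither members nor class markers, by Pearson's correlation of log2(CPM + 1) with the summed family. These points share libraries, depth and cells of mixed classes, so the values are a description. The closest were Gpr174, a receptor for lysophosphatidylserine on lymphocytes (0.95), the long noncoding RNA 4833403J16Rik (0.95), Lax1, an adaptor that dampens lymphocyte signalling (0.93), Il27ra, the receptor for interleukin-27 (0.93), and Ptprcap, a partner of CD45 (0.92). Nlrc3, Sept1, Lck, Gm19585 and Cd2 followed, from 0.91 to 0.90, and 5 of these 10 were also among the 10 highest by Spearman's correlation. The second in this order, 4833403J16Rik, is part of the locus itself: it starts 1127 bases beyond the end of Gimap5 on the same strand, before Gimap3, and the RNA gene Gm44226 overlaps it on the other strand. It was at 23.1 and 18.6 CPM in T-like, 31.2 and 39.9 in NK-like, 34.0 and 19.6 in B-like and 1.16 and 0.66 in macrophage-like cells. Whether its UMIs come from a transcript of its own or from RNA that runs on from Gimap5 was not tested. Among the members, Gimap5 tracked the sum of the other 7 most closely (0.97) and Gimap3 least (0.87).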

How the data were processed

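Live CD45+ cells of B16 tumours were profiled with the Chromium 3′ v3 chemistry, 1 library per genotype, grouped by the labelled genotype. The authors aligned reads to mm10 with Cell Ranger, version 4.0.0 per the file headers, and deposited 1 matrix of UMI counts, not normalised, with a table of each barcode's library. Whether depth was equalised is not given in the sources used here.

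Cells with at least 200 genes and at most 10% mitochondrial UMIs, the limits in the study's methods, were kept. Scrublet (scanpy 1.11.5) called 1 cell per library at its own threshold, so the highest scores were removed at 0.8% per 1000 cells, 256 and 532 cells. Marker levels were scaled and averaged per class, and a cell joined its top class if it had 2 of the markers and no other lineage exceeded 0.75 of the score. These limits, those of the T-like states and the members and lists were chosen with earlier results of these data known. One gene is not reported here, and the T-like states and the quiescence list were recomputed without it after their values had been seen.

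UMIs were summed per class and library and divided by the class total (CPM). Genes at 20 CPM in any compared value entered the counts past a fold, with a pseudocount of 1, while the members' ratios carry none. Named genes were the members, the fixed lists and the 10 genes most like the family. Alternatives were Leiden clusters (leidenalg 0.10.2), a stricter gate, thinning, doublets kept, no cell filter, equal cell weight, TMM factors (edgeR 4.0.16), another minimum, pseudocount or correlation, and each class without its top Gimap cell. Fold calls were tested on simulated Poisson counts at the depth of T-like cells, and intervals on simulated Poisson counts. Shallower classes and UMIs gathered in few cells were not simulated.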

Additional observations from a re-analysis of the deposited data

Results flagged for a closer look

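The ratio of the summed family between the libraries did not have 1 direction in all classes. The log2 ratio of KO over WT was 0.28 (0.02 to 0.53) in B-like cells, -0.39 (-0.53 to -0.26) in macrophage-like cells and -0.68 (-0.92 to -0.43) in monocyte-like cells, and the difference between these classes was not tested. With classes from clusters the value in B-like cells turned to -0.22, the direction of the other classes named. T cell markers gave -0.56 (-0.65 to -0.47) in macrophage-like and -0.38 (-0.56 to -0.19) in monocyte-like cells, and B cell markers gave -0.56 and -0.90. In macrophage-like cells without a lymphoid marker UMI the ratio of the family was 0.21 (-0.26 to 0.69).

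Cells that the marker gate put in no class entered no comparison, yet they held the family at 279 (260 to 299) CPM in 543 cells labelled WT and at 291 (271 to 311) in 752 cells labelled KO, above the 17.0 and 26.2 in granulocyte-like cells. Of these Gimap UMIs, 83.2% and 81.0% lay in the 103 and 119 cells with at least 3 each.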

How the results depend on the processing

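Of the 8 genes, 0 passed 1.5-fold between the libraries in T-like cells under the 10 alternatives run on it, and the T-like over macrophage-like ratio stayed above 0 under each of its alternatives. The number of all genes past that fold depended on the filter, from 213 to 2377 with no minimum level, 55 with a minimum of 50 CPM and 134 with a pseudocount of 5. The family level in T-like cells was 1094 and 1055 CPM. In the library labelled WT it was 964 with classes from clusters, 1550 with thinning, 1589 with equal cell weight and 1440 without cycling cells. In the library labelled KO it was 1008 with the stricter gate, 1582 with thinning, 1638 with equal weight and 1506 without cycling cells. In macrophage-like cells it was 57.7 and 43.9. With the stricter gate it was 45.7 and 40.2, with thinning 51.3 and 36.8, and with doublets kept 66.6 and 53.8. It was 52.9 with equal weight (WT), 48.0 with clusters (KO), and 6.92 and 8.00 in cells without a lymphoid marker UMI, a group chosen after seeing the data. The T-like over macrophage-like log2 ratio was 4.01 and 4.45 with clusters, 4.92 and 5.43 with thinning, 4.03 and 4.26 with doublets kept, 4.91 and 5.15 with equal weight, 7.31 and 7.04 in those cells, and 4.59 with the stricter gate in the library labelled WT. The Tcf7-positive over Gzmb-positive log2 ratio was 0.13 with equal weight in the library labelled WT, and in the library labelled KO it turned to -0.24 with thinning and -0.26 with equal weight. The KO over WT log2 ratio in T-like cells was 0.12 with clusters, -0.12 with the stricter gate, 0.029 with thinning, 0.043 with equal weight and 0.065 without cycling cells. With clusters the level in B-like cells was 801 and 688 CPM, against 1225 and 1485. In the library labelled KO the B-like over T-like log2 ratio turned to -0.61 with clusters, -0.25 with thinning, -0.14 with equal weight and -0.020 without cycling cells, and the KO over WT ratio in B-like cells to -0.22 with clusters. The cause of these shifts was not tested. Leaving out the barcodes found in both libraries, added after seeing the data, moved no value beyond its counting interval. No paired analysis was possible because each genotype has 1 library. The limit is that of 1 pooled library per genotype: intervals cover counting error only, not the spread between mice, and UMIs of NK-like, B-like and pDC-like cells are few.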
